A study of Mus musculus with 12 samples.

Results

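The mitochondrial ribosomal protein genes were followed in thioglycollate-elicited peritoneal exudate cells (PECs) of the mouse before and after stimulation with LPS. They were taken as every gene of the expression table whose symbol begins with *Mrpl* or *Mrps* and a number, where the names were given to proteins assigned to the large (*Mrpl*) and the small (*Mrps*) subunit of the mitochondrial ribosome. The names do not always match the place of the protein, since those of *Mrps18a* and *Mrps30* lie in the large subunit and that of *Mrps36* belongs to the 2-oxoglutarate dehydrogenase complex. Subunits below follow the symbols. The rule found 77 genes of 12850 listed, 48 *Mrpl* and 29 *Mrps* genes, and all 77 were among the 11885 genes tested.

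RNA was sequenced from PECs of C57BL/6 mice of 2 genotypes, wild type (WT) and *Zc3h12a* S513A/S513A (S513A). In the S513A knock-in, made by genome editing in fertilized eggs so that every cell carries it, a serine of Regnase-1 that binds 14-3-3 proteins when phosphorylated is replaced by alanine. Regnase-1 is an RNase that degrades mRNAs of inflammatory genes, and the study asked what the lost phosphorylation site does to mRNA levels. PECs were collected 3.5 days after an injection of thioglycollate medium into the peritoneal cavity, an irritant that draws macrophages there, cultured, and harvested unstimulated (0 hr) or after 4 or 8 hr with LPS, a component of bacterial cell walls, at 100 ng/ml. The groups were thus WT at 0, 4 and 8 hr and S513A at 0, 4 and 8 hr, with 2 libraries each and 12 in all. All groups had the elicitation and culture in common. Age and sex of the mice are not given, nor whether the libraries of a group came from separate mice, so the p-values below measure the spread between libraries, which may be technical.

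Mitochondria have their own ribosomes, which translate the few proteins encoded by mitochondrial DNA. These proteins are core subunits of the respiratory chain and of the ATP synthase. The ribosomal RNAs are made in the organelle, whereas all mitochondrial ribosomal proteins are encoded in the nucleus, translated in the cytosol and imported. Macrophages stimulated with LPS are known to lean on glycolysis and to change the use of their mitochondria, which makes the supply of mitochondrial ribosome parts a matter of interest in these cells.

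Each library held between 9525979 and 12439960 reads on the listed genes. The 77 genes took 0.158% to 0.267% of them, 17734 to 28795 reads per library. A single gene of the 77 had between 67 and 1001 reads, so that none of their levels rests on a few reads. This does not cover the markers and other genes outside the 77, some of which lie lower. The values are log2 CPM, the log2 of a gene's reads, with 0.5 read added, per 1000000 of the library size (CPM). The 8 macrophage markers examined were all listed and summed to 16754 to 27848 CPM per library. Of the markers of other cells, the 6 B cell genes, all listed, summed to 12.4 to 32.0 CPM. The 2 listed T cell genes of 6 summed to 1.33 to 3.02 CPM, and *Cd3e*, *Cd3d*, *Cd3g* and *Trac* were not in the table. The 2 listed neutrophil genes of 8 summed to 20.3 to 54.2 CPM at 0 hr, 45.4 to 108 CPM at 4 hr and 33.6 to 102 CPM at 8 hr. *S100a9*, *Ly6g*, *Mpo*, *Elane*, *Ngp* and *Retnlg* were not in the table. The 1 listed eosinophil gene of 5 lay at 15.2 to 18.3 CPM at 0 hr and 2.98 to 4.32 CPM at 8 hr, and the 3 listed mast cell genes of 5 summed to 1.45 to 3.20 CPM. The part of these cells in the differences below was not tested. In bulk RNA, fewer cells of a kind and less RNA per cell cannot be told apart. The S513A change is a codon substitution, so the level of *Zc3h12a* gives no check of the genotype labels.

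The genes lie on 17 chromosomes, with 11 on chromosome 11 and 8 on chromosome 17. Their transcripts are short, with a median of 1280 bases (418 to 7300) against 2932 bases over the listed genes with a known length, while the median GC content is 50.1% in both. Mapping was unstranded, so reads from overlapping genes on opposite strands cannot be told apart. The overlap is wide for *Mrps25*, which shares 69.8% of its exon bases with *Nr2c2*, and for *Mrps34*, which shares 63.4% with *Mapk8ip3*. *Mrpl53* shares 88.0% with the overlapping model *Gm42688* on its own strand, *Mrpl19* shares 36.0% with *Gcfc2*, and *Mrps18b* shares 30.5% with an antisense gene, so the levels of these genes are less certain. The annotation also holds 5 pseudogenes named after *Mrpl23*, *Mrpl48* and *Mrps36*, and reads of these 3 genes could be split with them.

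The promoters of the genes that came forward after LPS are printed because nuclear genes for mitochondrial proteins are known to share sites for NRF1, for the ETS factor GABPA and for YY1. The windows run from 250 bases before to 50 bases after the RefSeq transcription start on GRCm38.p6, 5′ to 3′ on the strand of the gene, and capitals mark matches to the motifs searched. *Mrpl39*, *Mrps18b*, *Mrpl3* and *Mrpl45* are the genes with the largest rises at 4 hr among those whose libraries did not overlap, and *Mrpl42* is the gene called lower at 8 hr.
Mrpl39 (chr16:84735195-84735494, minus strand): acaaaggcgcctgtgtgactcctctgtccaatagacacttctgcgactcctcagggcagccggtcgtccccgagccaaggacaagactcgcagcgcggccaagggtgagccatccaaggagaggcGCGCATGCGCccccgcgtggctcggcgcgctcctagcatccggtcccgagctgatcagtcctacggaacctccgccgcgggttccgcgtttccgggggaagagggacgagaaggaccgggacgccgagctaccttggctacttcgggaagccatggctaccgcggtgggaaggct
Mrps18b (chr17:35916391-35916690, minus strand): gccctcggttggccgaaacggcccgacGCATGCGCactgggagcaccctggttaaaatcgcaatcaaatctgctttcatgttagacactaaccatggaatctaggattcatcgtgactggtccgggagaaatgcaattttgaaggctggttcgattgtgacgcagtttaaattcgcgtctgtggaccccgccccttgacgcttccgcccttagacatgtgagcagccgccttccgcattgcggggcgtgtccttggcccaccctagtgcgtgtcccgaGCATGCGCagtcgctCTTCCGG
Mrpl3 (chr9:105053018-105053317, plus strand): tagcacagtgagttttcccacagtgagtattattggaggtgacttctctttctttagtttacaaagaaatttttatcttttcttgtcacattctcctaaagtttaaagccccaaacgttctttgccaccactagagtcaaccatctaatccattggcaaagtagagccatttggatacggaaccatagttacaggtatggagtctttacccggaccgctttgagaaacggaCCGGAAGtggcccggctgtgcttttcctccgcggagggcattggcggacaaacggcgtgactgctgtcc
Mrpl45 (chr11:97315466-97315765, plus strand): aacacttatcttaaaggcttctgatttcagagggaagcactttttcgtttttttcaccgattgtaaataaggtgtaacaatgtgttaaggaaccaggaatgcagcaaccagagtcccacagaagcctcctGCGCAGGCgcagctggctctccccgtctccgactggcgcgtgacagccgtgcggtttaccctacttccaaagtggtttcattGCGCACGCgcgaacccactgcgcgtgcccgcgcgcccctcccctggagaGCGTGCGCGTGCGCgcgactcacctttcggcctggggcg
Mrpl42 (chr10:95501900-95502199, minus strand): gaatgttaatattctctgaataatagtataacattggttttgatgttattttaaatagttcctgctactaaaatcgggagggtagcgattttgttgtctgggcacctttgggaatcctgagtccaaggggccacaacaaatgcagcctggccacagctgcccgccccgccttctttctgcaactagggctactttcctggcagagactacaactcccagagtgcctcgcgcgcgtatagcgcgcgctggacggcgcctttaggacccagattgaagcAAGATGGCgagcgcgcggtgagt

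In *Mrpl39* the capitals are a pair of overlapping NRF1 half-sites on opposite strands that begin 125 and 123 bases before the start. *Mrps18b* holds an NRF1 half-site 223 bases before the start, another after it, and an ETS match at the end of the window. These places are counted from the RefSeq start, which can differ from that of GENCODE. By GENCODE, *Mrps18b* starts at 35916389, so that its whole window lies before the start. The GENCODE start of *Mrpl39*, at 84735742, also lies outside its window. *Mrpl3* has a single ETS match that begins 19 bases before the start. *Mrpl45* has only the looser NRF1 form, at 4 places. *Mrpl42* has a YY1 match after the start and none of the others.

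Over the 68 genes for which a RefSeq window was found, the ETS motif (CCGGAAG, either strand) was in 26, or 38.2%, against 9.93% of all promoters of the table and 21.2% of those of tested genes. The NRF1 half-site GCGCATGC was in 8, or 11.8%, against 3.05% of all promoters and 6.20% of those of tested genes. Its looser form GCNTGCGC, which includes every half-site match, was in 22, or 32.4%, against 11.2% and 23.1%. The YY1 motif AAGATGGC was in 11, or 16.2%, against 3.19% and 5.65%. The E-box CACGTG was in 4, or 5.88%, against 8.09% and 12.1%. A match is a description of the letters in the window and not evidence of binding.

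At 0 hr the levels of the genes ranged widely when divided by transcript length. The length was that of the longest GENCODE transcript paired with a RefSeq transcript, where there was one. Which transcript form the cells express was not examined, and the order below depends on this choice. The median was 16.9 CPM per kb over the 77 genes, 18.2 for the large and 12.7 for the small subunit. The highest were *Mrpl33* at 132 ± 35.8 CPM per kb (SD, n = 4), *Mrps21* at 125 ± 46.1 (SD, n = 4) and *Mrpl52* at 114 ± 34.0 (SD, n = 4), and the differences among these 3 were smaller than their SDs. The lowest were *Mrpl47* at 2.65 ± 0.55 CPM per kb (SD, n = 4), *Mrps35* at 3.24 ± 0.29 (SD, n = 4) and *Mrps5* at 3.30 ± 0.50 (SD, n = 4). *Mrps5* and *Mrps35* differed by less than their SDs, and the libraries of *Mrpl47* (1.98 to 3.27 CPM per kb) overlapped with those of both. *Mrpl33*, *Mrps21*, *Mrpl47* and *Mrps5* encode proteins with bacterial counterparts, whereas *Mrpl52* and *Mrps35* encode proteins found only in mitochondrial ribosomes. The highest 3 have transcripts of 418 to 488 bases and the lowest 3 of 3364 to 4481 bases.

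The summed level of the genes differed more between libraries than between time points. In WT PECs it was 1668 and 1984 CPM at 0 hr, 2523 and 1717 CPM at 4 hr, and 2519 and 2738 CPM at 8 hr. In S513A PECs it was 2531 and 2410 CPM at 0 hr, 2269 and 2926 CPM at 4 hr, and 1533 and 2287 CPM at 8 hr. The sum was higher at 8 than at 0 hr in WT and lower in S513A PECs, without overlap of the libraries. Averaged over genotypes, the sum was 2149 ± 397 CPM (SD, n = 4) at 0 hr, 2359 ± 506 CPM (SD, n = 4) at 4 hr and 2269 ± 524 CPM (SD, n = 4) at 8 hr, so the time points lay within the spread.

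Both subunits followed the same course. The large subunit genes summed to between 1066 and 2035 CPM and the small subunit genes to between 467 and 891 CPM per library, and both sums were lowest in the first S513A library at 8 hr and highest in the second S513A library at 4 hr. The ratio of the large to the small subunit sum stayed between 2.12 and 2.35, although the total differed 1.91-fold between the highest and the lowest library. The median of the 77 genes in a library held 62.7% of their variance between libraries.

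**Figure D1:**
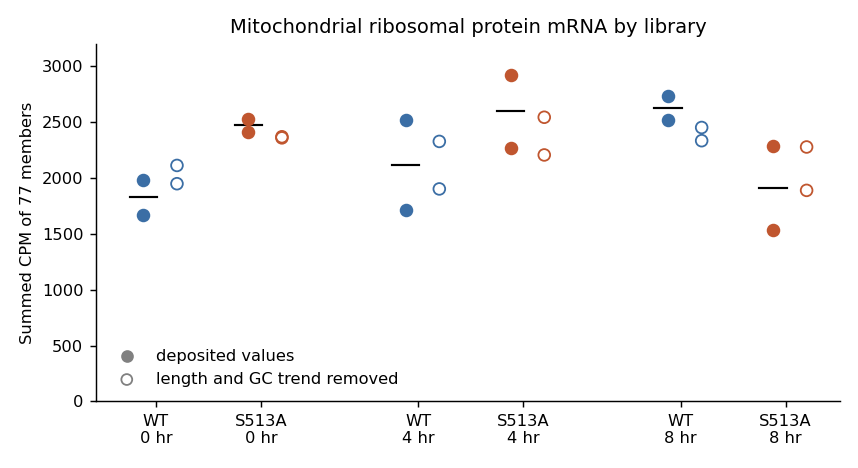
Summed CPM of the 77 mitochondrial ribosomal protein genes (vertical axis) in each of the 12 libraries, by genotype and hr of LPS (horizontal axis); filled points are the deposited values, black lines the means of 2 libraries, and open points the sums once the trend with length and GC content was taken out. The filled points run from 1533 to 2926 CPM and the open points from 1889 to 2544 CPM.

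The libraries also differed in how their values ran with transcript length over all tested genes, and the level of these genes moved with that slope. The slope, taken against the mean of the 12 libraries, was 0.21 log2 units per doubling of length in the first S513A library at 8 hr, 0.18 in the second WT library at 4 hr, and 0.12 and 0.08 in the WT libraries at 0 hr. These 4 libraries were the only ones with a positive slope, and their medians of the 77 genes, 4.18, 4.31, 4.36 and 4.69 log2 CPM, were the 4 lowest. The other 8 libraries had slopes from -0.17 to -0.0029 and medians from 4.75 to 5.13 log2 CPM. With the trend of the values in length and GC content taken out of every library, the ratio of the highest to the lowest summed level was 1.35 in place of 1.91. The part of the slope in the differences described below was otherwise not tested.

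**Figure D2:**
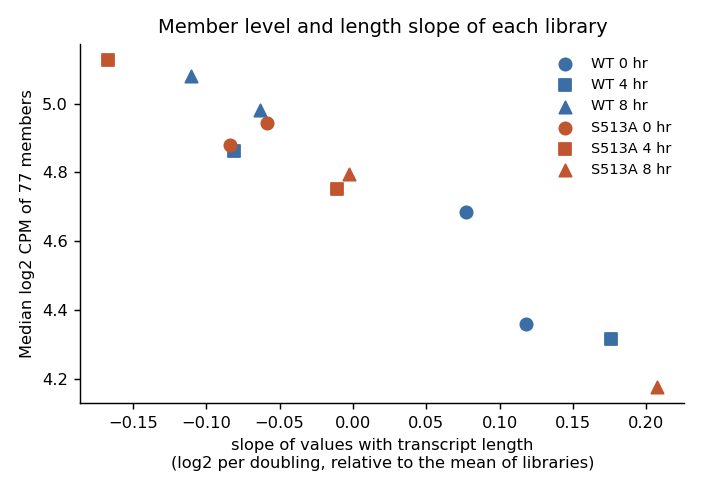
Median log2 CPM of the 77 mitochondrial ribosomal protein genes (vertical axis) against the slope of all tested genes' values with transcript length (horizontal axis, log2 units per doubling of length, relative to the mean of the libraries); each point is 1 library, colored by genotype and shaped by time point. The 4 libraries with a slope above 0 have the 4 lowest medians.

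LPS raised a minority of the genes at 4 hr, led by *Mrpl39*. With both genotypes together, 14 of the 77 genes were higher and 2 were lower at 4 hr than at 0 hr (limma, Benjamini-Hochberg adjusted p under 0.05), against 29.1% and 26.7% of all tested genes. These are 18.2% and 2.60% of the 77 genes, below the shares over all genes, a difference that was not tested. The median log2 fold change of the 77 was 0.08, against 0.02 for all genes tested, and was -0.01 once the length and GC trend was removed. Of the 14 genes called higher, 10 were of the large and 4 of the small subunit, and the 2 called lower were of the large subunit. For 6 of the 14, and so of the 77, all 4 LPS libraries lay above all 4 unstimulated libraries. Over all genes this held for 2960 of the 3461 called higher, or 24.9% of the 11885 tested. The 6 genes were a smaller share by either count, a difference that was not tested.

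*Mrpl39* (ENSMUSG00000022889, chromosome 16, 84717576 to 84735742, GRCm38) encodes a large subunit protein that bacterial ribosomes lack. In WT PECs it was at 4.38 and 4.73 log2 CPM before LPS, 6.21 and 5.65 after 4 hr and 5.55 and 5.91 after 8 hr. In S513A PECs it was at 4.75 and 4.94 log2 CPM before LPS, 6.08 and 6.54 after 4 hr and 5.35 and 5.74 after 8 hr. Every LPS library lay above every unstimulated one in both genotypes. The mean of *Mrpl39* rose from 4.70 ± 0.23 (SD, n = 4) to 6.12 ± 0.37 (SD, n = 4) log2 CPM at 4 hr, a log2 fold change of 1.42 (SE 0.16, limma, Benjamini-Hochberg adjusted p = 2.74e-05). At 8 hr the log2 fold change of *Mrpl39* against 0 hr was 0.94 (SE 0.16, limma, adjusted p = 0.000788). The step from 4 to 8 hr was -0.48 (SE 0.16, limma, adjusted p = 0.053), which misses the threshold of 0.05. At both times the rise was called with the libraries of either genotype alone.

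*Mrps18b* (chromosome 17, 35910379 to 35916389) encodes one of the mitochondrial relatives of bacterial ribosomal protein S18. It stood at 2.75 to 3.15 log2 CPM in the 4 unstimulated libraries and at 3.16 to 3.76 at 4 hr, with the second WT library at 4 hr, at 3.16, close to the highest unstimulated one. Its log2 fold change at 4 hr was 0.64 (SE 0.14, limma, adjusted p = 0.00259). At 8 hr the *Mrps18b* libraries lay at 3.10 to 3.66 and overlapped the unstimulated ones, and the log2 fold change was 0.54 (SE 0.14, limma, adjusted p = 0.00905). When the 77 genes were centred to 1 median in every library, the rise of *Mrps18b* at 8 hr was 0.50 and no longer called (adjusted p = 0.058, limma).

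*Mrpl3* (chromosome 9, 105053239 to 105079888) encodes the counterpart of bacterial L3, which lies near the site of peptide bond formation. It rose at 4 hr from 4.90 ± 0.13 (SD, n = 4) to 5.50 ± 0.28 (SD, n = 4) log2 CPM. The lowest 4 hr library, at 5.14, lay above the highest unstimulated one, at 5.03. The log2 fold change of *Mrpl3* was 0.60 (SE 0.13, limma, adjusted p = 0.00187) at 4 hr. At 8 hr it was 0.25 (SE 0.13, limma, adjusted p = 0.137), within the spread.

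*Mrpl45* (chromosome 11, 97315716 to 97329920) encodes a protein at the exit of the peptide tunnel that ties the ribosome to the inner membrane. It was at 4.30 and 4.69 log2 CPM in WT and 4.65 and 4.68 in S513A PECs at 0 hr. At 4 hr it was at 5.17 and 4.78 in WT and 5.10 and 5.39 in S513A PECs, and at 8 hr at 5.25 and 5.30 in WT and 4.77 and 5.15 in S513A PECs. All LPS libraries lay above all unstimulated ones at both times. The log2 fold change of *Mrpl45* was 0.53 at 4 hr (SE 0.13, limma, adjusted p = 0.00525) and 0.54 at 8 hr (SE 0.13, limma, adjusted p = 0.00628). With the WT libraries alone the 4 hr call was lost (log2 fold change 0.48, limma adjusted p = 0.070), as was the 8 hr call with the S513A libraries alone (0.30, limma adjusted p = 0.200).

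The other genes whose 4 hr libraries did not overlap the unstimulated ones had smaller changes. *Mrpl53*, a large subunit gene, lay at 4.00 to 4.24 log2 CPM at 0 hr and 4.25 to 4.82 at 4 hr (log2 fold change 0.44, SE 0.16, limma adjusted p = 0.031). *Mrps2*, the counterpart of bacterial S2, lay at 4.21 to 4.37 log2 CPM at 0 hr and 4.41 to 4.72 at 4 hr (log2 fold change 0.28, SE 0.09, limma adjusted p = 0.024). Neither call held when the genes were centred, with limma adjusted p of 0.088 for *Mrpl53* and 0.331 for *Mrps2*. The log2 fold changes were then 0.40 for *Mrpl53* and 0.23 for *Mrps2*. Both calls were also lost with the libraries of either genotype alone. There the log2 fold changes were 0.33 in WT and 0.56 in S513A PECs for *Mrpl53*, and 0.25 and 0.31 for *Mrps2*.

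**Figure D3:**
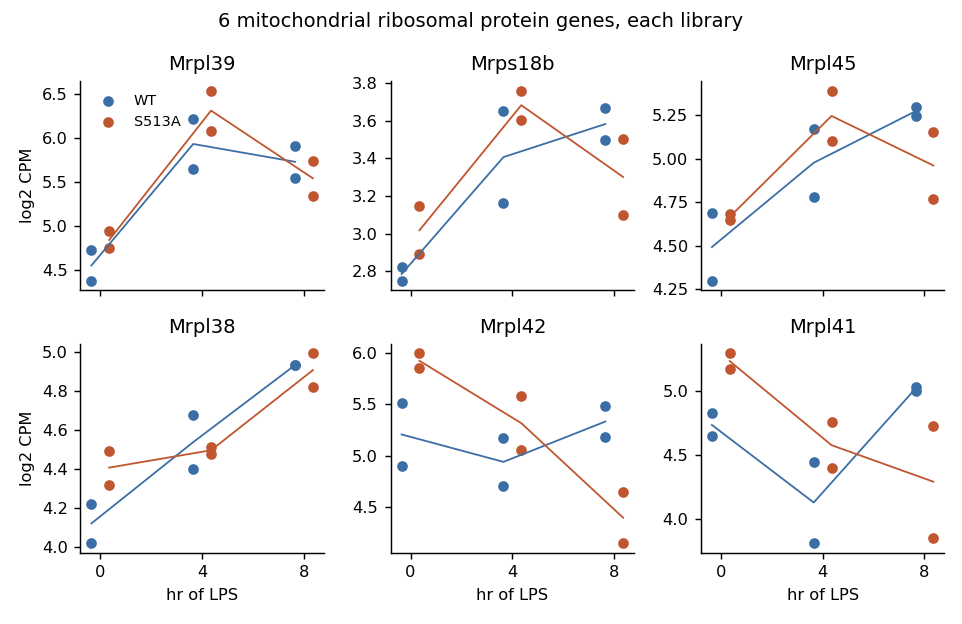
Log2 CPM (vertical axes, which start above 0 and differ between panels) of 6 mitochondrial ribosomal protein genes in each of the 12 libraries at 0, 4 and 8 hr of LPS (horizontal axes); points are libraries, colored by genotype, and lines join the means of 2 libraries. *Mrpl39* is highest at 4 hr in both genotypes, *Mrpl38* is highest at 8 hr in both, and *Mrpl42* is lowest in the S513A libraries at 8 hr.

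The remaining 8 genes called higher at 4 hr had libraries that overlapped with the unstimulated ones, and they are named here after their values were seen. *Mrpl27*, whose bacterial counterpart reaches the site of peptide bond formation, had a log2 fold change of 0.64 (SE 0.17, limma adjusted p = 0.00691). *Mrpl52*, *Mrpl35*, *Mrpl32*, *Mrps22*, *Mrpl22*, *Mrps7* and *Mrpl38* had log2 fold changes from 0.25 to 0.63 with limma adjusted p from 0.013 to 0.050. In all 8 the lowest of the 4 hr libraries was the second WT library. *Mrpl27*, for one, was at 6.14 and 5.54 in WT and at 6.02 and 6.40 in S513A PECs at 4 hr, against 5.20 to 5.57 at 0 hr. Without that library 27 genes were called higher at 4 hr and 0 lower, and without the first WT library at 4 hr 6 were called higher and 8 lower. The count of genes called higher was also 6 without the first WT library at 0 hr, 7 and 8 without the first and second S513A library at 0 hr, and 5 without the second S513A library at 4 hr. Without the 3 libraries of most positive length slope (the first S513A library at 8 hr, the second WT library at 4 hr and the first WT library at 0 hr), the counts were 28 higher and 3 lower. These 3 also had the 3 lowest medians of the 77 genes, and each of their groups is then left with 1 library.

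The 2 genes called lower at 4 hr, also named after their values were seen, were *Mrpl41* and *Mrpl14*. *Mrpl41*, a large subunit gene without a bacterial counterpart, was at 4.64 and 4.82 log2 CPM in WT and 5.29 and 5.17 in S513A PECs at 0 hr, and at 4.44 and 3.81 in WT and 4.39 and 4.76 in S513A PECs at 4 hr. The 4 hr libraries were lower within each genotype, while the second S513A library overlapped the WT libraries at 0 hr. The log2 fold change of *Mrpl41* was -0.63 (SE 0.19, limma, adjusted p = 0.016). *Mrpl14*, the counterpart of bacterial L14 at the interface of the subunits, had a log2 fold change of -0.51 (SE 0.20, limma, adjusted p = 0.044). The 2 calls were lost, so that the count was 0, without the second WT library at 0 hr, the second WT library at 4 hr, the first S513A library at 0 hr or the first S513A library at 4 hr. It was 1 without either WT library at 8 hr or the second S513A library at 0 hr. With the length and GC trend removed, 17 genes were called higher and 10 lower at 4 hr.

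At 8 hr, 9 of the 77 genes were higher and 1 was lower than at 0 hr, against 24.5% and 21.6% of all tested genes, and the median log2 fold change was 0.07. For 4 of the 9, and so of the 77, the libraries did not overlap: *Mrpl39*, *Mrpl38*, *Mrpl45* and *Mrps2*. Over all genes this held for 2565 of the 2917 called higher, or 21.6% of the 11885 tested. The 4 genes were a smaller share by either count, a difference that was not tested. *Mrpl27*, *Mrpl52*, *Mrps18b*, *Mrps10* and *Mrpl53* were the others, with log2 fold changes from 0.44 to 0.64 and limma adjusted p from 0.00893 to 0.045. Within the genotypes, the log2 fold changes of these 5 were 0.79 to 1.36 in WT PECs, where all 5 were called, and -0.08 to 0.28 in S513A PECs, where none was (limma adjusted p from 0.285 to 0.870). The count of 9 was 5 without the first WT library at 0 hr, either WT library at 8 hr, the second S513A library at 0 hr or the second S513A library at 8 hr, and 14 without the first S513A library at 8 hr. The 1 gene called lower became 7 without the second S513A library at 8 hr.

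*Mrpl38* (chromosome 11, 116131817 to 116138868), a large subunit gene without a bacterial counterpart, was the one gene called higher at 8 than at 4 hr of LPS. In WT PECs it was at 4.02 and 4.22 log2 CPM before LPS, 4.68 and 4.40 after 4 hr and 4.93 and 4.93 after 8 hr. In S513A PECs it was at 4.32 and 4.49 log2 CPM before LPS, 4.48 and 4.51 after 4 hr, and 4.82 and 4.99 after 8 hr. Every 8 hr library of *Mrpl38* lay above all libraries of the earlier times. From the libraries of each genotype alone, its change from 0 to 4 hr was 0.42 in WT and 0.09 in S513A PECs. Neither was called (limma adjusted p = 0.066 and 0.631). The log2 fold change at 8 hr was 0.66 against 0 hr (SE 0.10, limma, adjusted p = 0.000219) and 0.40 against 4 hr (SE 0.10, limma, adjusted p = 0.011). The rise at 8 hr against 0 hr was called in either genotype alone and in all other alternatives tried. The step from 4 to 8 hr was not called in either genotype alone (limma adjusted p = 0.151 in WT and 0.074 in S513A PECs) or with the genes centred (limma adjusted p = 0.218).

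Between 4 and 8 hr of LPS, *Mrpl38* was the 1 gene called higher and *Mrpl19* the 1 called lower, against 12.8% of tested genes in each direction. *Mrpl19*, the counterpart of bacterial L19, had a log2 fold change of -0.32 (SE 0.10, limma, adjusted p = 0.033). Its fall lay in the S513A libraries, which went from 4.64 and 4.67 at 4 hr to 3.94 and 4.05 at 8 hr. In WT PECs *Mrpl19* was at 4.54 and 4.24 at 4 hr and at 4.40 in both libraries at 8 hr.

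*Mrpl42* (chromosome 10, 95480805 to 95501940), the 1 gene called lower at 8 hr against 0 hr and named after its values were seen, encodes another protein that bacterial ribosomes lack. In WT PECs it was at 4.90 and 5.52 log2 CPM before LPS, 5.17 and 4.70 after 4 hr and 5.18 and 5.48 after 8 hr. In S513A PECs it was at 6.00 and 5.85 log2 CPM before LPS, 5.05 and 5.58 after 4 hr, and 4.14 and 4.64 after 8 hr. Both S513A libraries at 8 hr were lower than all others in that genotype, and the WT libraries overlapped at all times. Over both genotypes the log2 fold change of *Mrpl42* was -0.71 (SE 0.18, limma, adjusted p = 0.00905), made up of 0.13 in WT (limma adjusted p = 0.736) and -1.54 in S513A PECs (limma adjusted p = 0.000906).

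Read within each genotype, the genes went different ways at 8 hr. At 4 hr, 4 of the 77 were higher and 0 lower in WT PECs, against 22.6% and 18.7% of tested genes, and 6 were higher and 0 lower in S513A PECs, against 23.1% and 20.2%. By limma, 10 genes in WT and 11 in S513A PECs had an unadjusted p under 0.05 in either direction, which is 13% and 14.3% of the 77, against 49.1% and 50.6% of all tested genes. The median log2 fold change was 0.19 in WT and 0.02 in S513A PECs. *Mrpl39*, *Mrps18b* and *Mrpl3* were called in both.

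At 8 hr, 19 genes (24.7%) were higher and 0 lower in WT PECs, against 19.4% and 14.9% of tested genes. An unadjusted limma p under 0.05 was held by 34 (44.2%), against 44.7% of tested genes. The median log2 fold change was 0.49, against 0.03 for all tested genes, and it was above 0 in 76 of 77 genes. In S513A PECs 2 (2.6%) were higher and 13 (16.9%) lower, against 20.9% and 19% of tested genes. An unadjusted limma p under 0.05 was held by 25 (32.5%), against 48.7% of tested genes. The median there was -0.32, against -0.01 for all tested genes, and 13 of 77 genes were above 0. The called genes were of both subunits, with 14 large and 5 small subunit genes higher in WT and 8 large and 5 small lower in S513A PECs. *Mrpl39* and *Mrpl38* were called higher in both genotypes.

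Transcript lengths of the called genes ranged widely. The 13 genes called lower in S513A PECs at 8 hr had a median transcript length of 701 bases (478 to 6073) and the 19 called higher in WT 1138 bases (418 to 7300), against 1280 bases over the 77. The 14 genes called higher at 4 hr in both genotypes together had a median of 1686.5 bases (418 to 3972). These differences in length were not tested. In S513A PECs *Mrpl42* fell by 1.54, *Mrps21* by 1.33 and *Mrpl33* by 1.06 on the log2 scale (limma adjusted p of 0.000906, 0.012 and 0.020). In WT PECs *Mrpl52* rose by 1.36, *Mrpl39* by 1.18 and *Mrpl27* by 1.06 (limma adjusted p of 0.00724, 0.00272 and 0.00554).

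**Figure D4:**
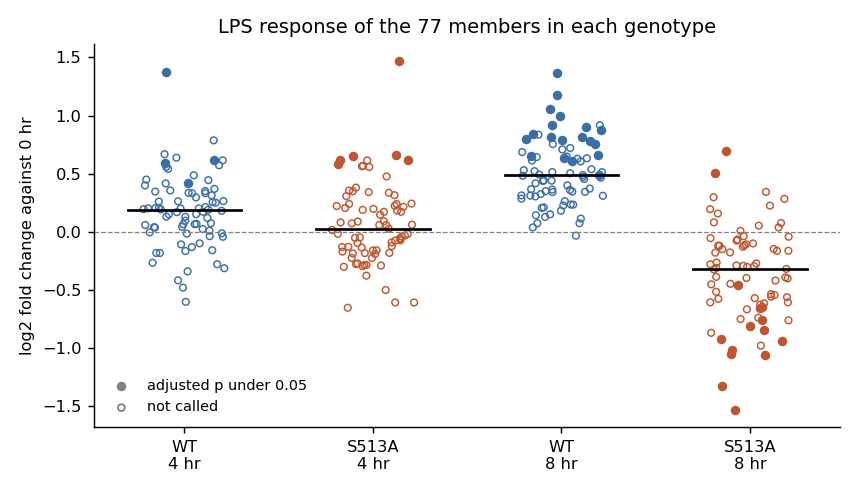
Log2 fold change against 0 hr (vertical axis) of the 77 mitochondrial ribosomal protein genes at 4 and 8 hr of LPS in each genotype (horizontal axis); each point is 1 gene, filled where the limma adjusted p is under 0.05, and black lines are the medians. The medians in WT PECs are 0.19 at 4 hr and 0.49 at 8 hr, and those in S513A PECs 0.02 and -0.32.

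For 33 of the 77 genes (42.9%), 22 of the large and 11 of the small subunit, both WT libraries at 8 hr lay above both at 0 hr while both S513A libraries at 8 hr lay below both at 0 hr. The same held for 7.11% of all tested genes. The reverse held for 0 of the 77 and for 572 of the 11885 tested genes. All 33 rest on the same 8 libraries, so they are not independent of each other. *Mrps28*, whose protein is related to bacterial S1, shows the pattern. It was at 3.43 and 4.07 log2 CPM at 0 hr and 4.53 and 4.65 at 8 hr in WT PECs. In S513A PECs it was at 4.54 and 4.61 log2 CPM before LPS and at 3.68 and 4.35 after 8 hr.

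No single gene passed the test of this difference. The genotype by LPS interaction called 0 of the 77 genes at 4 hr and 0 at 8 hr by limma, and it called 0 (0%) of all tested genes at either time. At an unadjusted p under 0.05 it held 0 of the 77 genes at 4 hr, against 1.21% of all tested genes, and 50 (64.9%) at 8 hr, against 20.2%, where the smallest adjusted p was 0.193. Without the second S513A library at 8 hr, some of the 77 genes were called at 8 hr. That fit leaves 1 library in the group, and the share of all tested genes called in it was not counted. The median interaction was -0.10 at 4 hr and -0.84 at 8 hr. At 8 hr it was -0.36 with the length and GC trend removed and -0.50 without the 3 libraries of most positive slope, which leaves 1 library at 0 hr in WT and at 8 hr in S513A PECs. It was 0.10 when the genes were centred, a step that brings the median difference near 0 by construction. *Mrpl42* had the smallest p of the 77 at 8 hr, with an interaction of -1.66 (SE 0.37, 95% interval from -2.48 to -0.85, limma adjusted p = 0.193).

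Between genotypes at a given time, the genes stood on one side together, but none was called. At 0 hr, 76 of 77 were at a higher level in the S513A than in the WT libraries, with a median log2 difference of 0.39, and 0 passed the test, against 0.0337% of tested genes. At 4 hr, 75 of 77 were higher with a median of 0.31, and 0 passed, against 0.0168%. At 8 hr, 75 of 77 were lower with a median of -0.47, and 0 passed, against 0.0337%. Averaged over the time points the median was 0.07, and 0 passed, against 0.0673%. By limma, 13 genes had an unadjusted p under 0.05 at 0 hr, 0 at 4 hr, 26 at 8 hr and 0 over the time points. These are 16.9%, 0%, 33.8% and 0% of the 77, against 7.98%, 7.01%, 12.5% and 6.71% of all tested genes.

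The gene with the smallest p at each time gives the scale of these differences. At 0 hr it was *Mrps28*, 0.82 higher in S513A PECs (SE 0.27, 95% interval from 0.22 to 1.43, limma adjusted p = 0.586). At 4 hr it was *Mrps18a*, another relative of bacterial S18, 0.32 higher (SE 0.15, 95% interval from -0.02 to 0.66, limma adjusted p = 0.622). At 8 hr it was *Mrpl42*, with a difference of -0.94 (SE 0.26, 95% interval from -1.52 to -0.37, limma adjusted p = 0.395). Over the time points it was *Mrpl21*, the counterpart of bacterial L21, 0.21 higher (SE 0.13, 95% interval from -0.06 to 0.49, limma adjusted p = 0.830). These intervals leave room for differences of over 1 log2 unit at 0 and 8 hr, so the tests do not show the genotypes to be alike.

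With the length and GC trend removed, the median difference between genotypes was 0.19 before LPS, 0.17 after 4 hr and -0.17 after 8 hr. Without the 3 libraries of most positive length slope, which leaves 1 library of 1 genotype at each time, it was 0.28, 0.03 and -0.19. When the genes were centred it was -0.0017, -0.04 and 0.08, near 0 by construction, so these values give no direction.

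**Figure D5:**
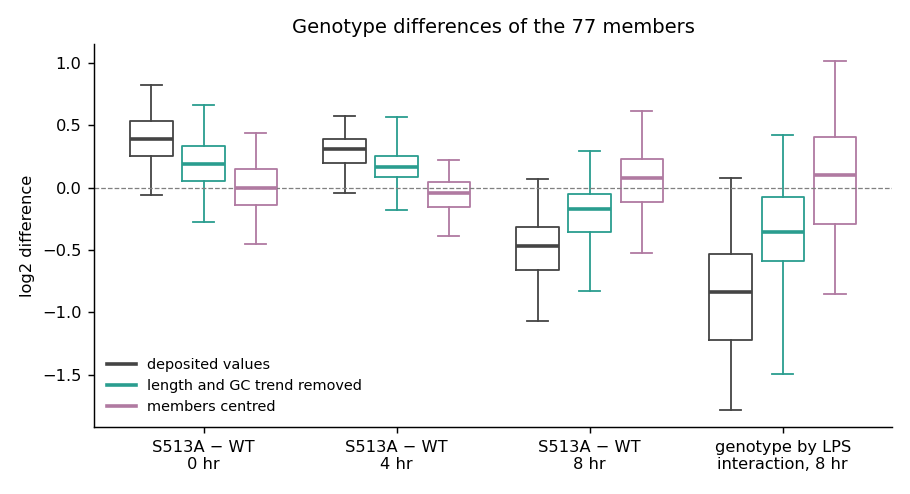
Log2 difference between S513A and WT PECs at 0, 4 and 8 hr and the genotype by LPS interaction at 8 hr (horizontal axis) for the 77 mitochondrial ribosomal protein genes (vertical axis, log2 units), from the deposited values, with a length and GC trend removed, and with the genes centred in each library; boxes span the quartiles with the median, whiskers the lowest and highest gene. The medians of the deposited values, 0.39, 0.31, -0.47 and -0.84, shrink to 0.19, 0.17, -0.17 and -0.36 with the trend removed.

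Other genes of the mitochondrial ribosome's pathway were read from lists of known members, against which stand the shares of all tested genes, 29.1% higher and 26.7% lower at 4 hr and 24.5% and 21.6% at 8 hr. Of 5 mitochondrial ribosomal proteins that carry other names, *Ptcd3* was called higher at 4 hr (log2 fold change 0.25, limma adjusted p = 0.020). *Dap3*, a small subunit protein that binds GTP, was called lower at 4 hr (-0.30, limma adjusted p = 0.035). The *Dap3* libraries at 4 hr (4.39 to 4.97 log2 CPM) overlapped the unstimulated ones (4.85 to 5.04). At 8 hr 0 of the 5 were called. Of 14 translation factors and translation helpers tested, 2 were higher and 2 lower at 4 hr and 2 higher at 8 hr. They included *Gfm1*, the elongation factor G of mitochondria (0.44 at 4 hr, limma adjusted p = 0.00109), and *Oxa1l*, which inserts new proteins into the inner membrane (-0.22 at 4 hr, limma adjusted p = 0.034). *Slirp*, which stabilizes mitochondrial mRNAs, was called higher at 8 hr (0.83, limma adjusted p = 0.035). Its libraries overlapped widely, at 3.89 to 5.41 log2 CPM at 0 hr and 4.69 to 6.26 at 8 hr.

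Genes for assembly of the mitochondrial ribosome and modification of its RNA numbered 24, with 8 higher and 6 lower at 4 hr, near the shares of all tested genes, and 5 higher and 3 lower at 8 hr. *Rbfa*, a maturation factor of the small subunit, was at 3.77 to 4.09 log2 CPM at 0 hr, 2.76 to 3.31 at 4 hr and 3.01 to 3.61 at 8 hr. The LPS libraries of *Rbfa* thus lay below all unstimulated ones. At 4 hr the log2 fold change was -1.02 (limma adjusted p = 0.000101), and the change after 8 hr was -0.69 (limma adjusted p = 0.00193). *Trmt61b*, a methyltransferase of mitochondrial RNA, rose by 0.63 at 4 hr (limma adjusted p = 0.0013), and *Tfb1m*, which methylates the small ribosomal RNA, by 0.53 at 8 hr (limma adjusted p = 0.00483). The *Tfb1m* libraries at 8 hr (2.64 to 3.25 log2 CPM) overlapped the unstimulated ones (2.22 to 2.77).

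Of 12 genes for mitochondrial transcription and its nuclear regulators, 6 were higher and 1 lower at 4 hr and 3 higher and 1 lower at 8 hr. *Esrra*, a nuclear receptor that activates mitochondrial genes, was at 5.27 to 5.51 log2 CPM at 0 hr and 5.99 to 6.28 at 4 hr, without overlap (log2 fold change 0.78, limma adjusted p = 2.18e-05). *Ppargc1b*, its coactivator, lay at 2.54 to 3.13 at 0 hr and 0.65 to 2.21 at 4 hr (-1.38, limma adjusted p = 0.00039). After 8 hr it lay at 2.18 to 2.95 and overlapped with the unstimulated libraries. The related coactivator *Pprc1* was higher at 8 hr (0.68, limma adjusted p = 0.019) and *Myc* lower (-1.14, limma adjusted p = 0.00119). The *Pprc1* libraries at 8 hr (5.05 to 6.02 log2 CPM) overlapped the unstimulated ones (4.47 to 5.08).

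The mitochondrial tRNA synthetases, which charge the tRNAs used by this ribosome, had 0 of 17 higher and 6 lower at 4 hr, and 2 higher and 3 lower at 8 hr, beside shares of all tested genes of 29.1% higher and 26.7% lower at 4 hr and 24.5% and 21.6% at 8 hr. From 4 to 8 hr, 7 of the 17 rose and 0 fell, against 12.8% in each direction. *Vars2*, the valine enzyme, was at 2.09 to 2.61 log2 CPM at 0 hr, 0.85 to 1.39 at 4 hr and 1.57 to 2.06 at 8 hr, so that its LPS libraries did not reach the unstimulated ones. At 4 hr the log2 fold change was -1.28 (limma adjusted p = 0.000115), and the change after 8 hr was -0.66 (limma adjusted p = 0.011). *Ears2*, the glutamate enzyme, was higher at 8 hr (0.86, limma adjusted p = 0.000442).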

How the data were processed

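RNA-seq data of PECs elicited with thioglycollate in WT and S513A mice were re-analysed, with 2 libraries per genotype at 0, 4 and 8 hr of LPS. The authors prepared cDNA from polyA RNA with the NEBNext Ultra kit, mapped paired-end reads on mm10 with HISAT2 in unstranded mode and counted them with featureCounts (version 1.6.3 per the labels). The deposited values are log2 CPM, made by the authors from reads plus 0.5 and an effective library size. The normalizing program, the gene annotation, the gene filter and the strand setting of the counting are not given in the sources used here. The step between low values gave that size, and 100% of values were within 0.1 read of a whole number (largest departure 0.00103 read). All deposited sample columns were used. Intervals of differences come from the spread between libraries.

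Genes that reached 1 CPM in 2 libraries or more were tested on the log2 scale with the package limma (3.58.1, R 4.3.3), as a mean for each of 6 groups (6 residual degrees of freedom) with a prior following the mean value. Tests were two-sided, and p values were adjusted by Benjamini-Hochberg over all 11885 genes of a contrast, with a threshold of 0.05. LPS contrasts averaged the genotypes unless a genotype is named. The code was tested on simulated data. Positions, lengths and GC content came from GENCODE on GRCm38, with lengths for 98.1% of listed genes and 100% of the 77. Python 3.11.15, pandas 2.3.3 and matplotlib 3.10.9 were used.

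Named genes are, for each LPS contrast, the largest rises and falls (up to 6 each, 4 each from 4 to 8 hr) among called genes whose libraries do not overlap; the smallest p per genotype contrast; the 3 highest and lowest levels per length; and the largest called rise and fall of each other list. Other genes are named as seen first. The genes, lists and alternatives were chosen with earlier results of these data known. Alternatives were no filter, a mean CPM of 5 or more, 1 CPM as a further pseudocount, median-ratio scaling, quantile normalization, no trend in the prior, voom weights, a replicate block, the leading factor of the replicate residuals as a term, removal of a length and GC trend (splines with 5 degrees of freedom), only the libraries compared, and each library left out. Centring the 77 genes to 1 median per library and leaving out the 3 libraries of most positive length slope (the first S513A library at 8 hr, the second WT library at 4 hr and the first WT library at 0 hr) were chosen after seeing the data.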

Additional observations from a re-analysis of the deposited data

Results flagged for a closer look

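The summed level of the mitochondrial ribosomal protein genes moved in opposite directions from 0 to 8 hr of LPS in the genotypes, with both libraries of each group on their side. It rose by 802 CPM in WT PECs and changed by -561 CPM in S513A PECs. The large subunit genes changed by 589 CPM in WT and -353 CPM in S513A PECs, and the small subunit genes by 213 CPM in WT and -208 CPM in S513A PECs. The difference between genotypes in these sums was not tested.

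Among the genes named in the text, 11 moved in the same opposite way, with both libraries of each group on their side. They belong to the 33 of the 77 genes (42.9%) with this pattern, which held for 7.11% of all tested genes. *Mrps28* was named above because it shows the pattern. The limits given above for overlapping genes (*Mrps34*, *Mrpl19*) and for pseudogenes (*Mrpl23*, *Mrpl48*, *Mrps36*) apply here too. The log2 fold changes at 8 hr were 0.37 in WT and -0.85 in S513A PECs for *Mrpl14*, 0.23 and -0.46 for *Mrpl19*, 0.64 and -0.45 for *Mrpl22*, and 0.51 and -1.02 for *Mrpl23*. They were 0.31 in WT and -1.06 in S513A PECs for *Mrpl33*, 0.28 and -0.94 for *Mrpl41*, and 0.34 and -0.54 for *Mrpl48*. Among the *Mrps* genes they were 0.45 in WT and -1.33 in S513A PECs for *Mrps21*, 0.84 and -0.56 for *Mrps28*, 0.61 and -0.30 for *Mrps34*, and 0.44 and -0.81 for *Mrps36*. The interaction test called none of these 11 genes by limma. The smallest adjusted p over the 77 genes was 0.193, and 50 of the 77 (64.9%) had an unadjusted p under 0.05, against 20.2% of all tested genes.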

How the results depend on the processing

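Of 28 results for single genes under LPS, 5 kept their side of the threshold in every alternative: *Mrpl39* at 4 and 8 hr, *Mrps18b* and *Mrpl3* at 4 hr and *Mrpl38* at 8 hr. The direction turned, below the threshold, for *Mrpl42* at 8 hr (0.13, WT libraries only), *Mrpl52* at 8 hr (-0.077, S513A libraries only) and *Mrpl19* from 4 to 8 hr (0.014, WT libraries only). These fits read either genotype alone, whereas the main values average the genotypes. The group means had the same directions. From 0 to 8 hr, *Mrpl42* went from 5.21 to 5.33 log2 CPM in WT PECs and *Mrpl52* from 5.88 to 5.80 in S513A PECs. From 4 to 8 hr, *Mrpl19* went from 4.39 to 4.40 in WT PECs. The fits also used fewer libraries, and the part of this in their p-values was not tested.

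Genes higher and lower at 4 hr (14 and 2) numbered 9 and 1 without a trend in the prior, 27 and 8 with the replicate factor as a term, 6 and 1 in WT libraries only, 4 and 0 in S513A libraries only, and 9 and 4 with the genes centred. The count higher was 28 without the 3 libraries of most positive length slope, which leaves 3 groups with 1 library each. The count lower was 5 with quantile normalization and 10 with the length and GC trend removed. Leaving out 1 library gave 5 to 27 higher and 0 to 8 lower.

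Genes higher and lower at 8 hr (9 and 1) numbered 20 and 8 with the factor, 25 and 0 in WT libraries only, and 2 and 15 in S513A libraries only. There were 19 higher without the 3 libraries and 8 lower with the trend removed, and leaving out 1 library gave 5 to 14 higher and 1 to 7 lower. The median at 8 hr was 0.49 in WT libraries only and -0.32 in S513A libraries only.

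From 4 to 8 hr (1 and 1), the counts were 4 and 8 with the factor, 2 and 0 in WT libraries only, 0 and 4 in S513A libraries only, 0 and 0 with the genes centred, and 2 and 3 without the 3 libraries. There were 7 higher with the trend removed, and 2 lower with the further pseudocount, median-ratio scaling, voom weights or the replicate block. Leaving out 1 library gave 1 to 3 higher and 0 to 5 lower. The median from 4 to 8 hr was 0.33 in WT libraries only and -0.41 in S513A libraries only.

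Between genotypes, 0 genes were called in all alternatives except 41 at 0 hr, 13 at 4 hr and 50 at 8 hr with the factor, and 16 at 0 hr with only the libraries compared. The interaction at 8 hr called 64 with the factor and 0 to 29 with 1 library left out, 29 without the second S513A library at 8 hr, where the lone library of that group is assumed to vary like the others. The factor was computed from the residuals of the same libraries, held 39.2% of their variance and, by construction, leaves each difference as it was and lowers its error.

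Deviations of same-numbered libraries correlated from -0.41 to 0.42 over all genes, taken across all pairs of groups. Between time points the correlations were 0.15, 0.09 and 0.42 within S513A PECs and -0.03, 0.08 and -0.10 within WT PECs. Over the mitochondrial ribosomal protein genes, the pairs of groups ran from -0.47 to 0.66. These values, from 2 libraries per group, cannot decide whether the numbers pair the libraries. With the replicate block, 15 genes were higher and 2 lower at 4 hr and 9 and 1 at 8 hr, and 0 were called between genotypes. The call of *Mrpl38* at 4 hr was lost with the block (log2 fold change 0.25, limma adjusted p = 0.054). With 2 libraries per group, the spread between libraries rests on few values. Its part in the error of these tests, beside that of the reads per gene, was not examined.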
